A study of Saccharomyces cerevisiae with 12 samples.

Results

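Expression of 41 budding yeast genes was examined, namely 40 genes of amino acid synthesis other than that of arginine and *GCN4*, in strains lacking the DNA repair genes *RAD4* and *RAD23*. The genes were taken by name: 11 of the branched-chain pathway, 7 of the lysine pathway, 10 of the aromatic pathway, 5 of the threonine pathway, 4 of the serine pathway, 3 of the proline pathway, and the activator *GCN4*. All 41 were measured. Where the array annotation named a gene alone for several probe sets, the probe set with the highest mean over all arrays was used, so that 41 of 9275 tested probe sets stand for the 41 genes.

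Yeast makes every amino acid from central metabolites, and the enzymes of these routes are under general amino acid control. When an amino acid runs short, uncharged tRNA activates the kinase Gcn2, translation of the *GCN4* message increases, and the Gcn4 protein activates genes in most of these pathways. Because Gcn4 is regulated mainly through translation, the level of its mRNA need not follow its activity. In rich medium, amino acids are taken up from outside.

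Cells were grown in rich medium (YPD) to an optical density of 0.5 to 0.6 and were not treated, and total RNA was hybridised to Affymetrix yeast S98 arrays, with 3 arrays for each of 4 strains. The strains were the *rad4Δrad23Δ* double mutant, the *rad23Δ* mutant (Euroscarf Y10278), the *rad4Δ* mutant (Y16158) and wildtype (Y10000). All are haploid derivatives of BY4742, a *MATα* strain in which *HIS3*, *LEU2*, *LYS2* and *URA3* are disrupted, and only the double mutant, built in the *rad23Δ* background, carries *HIS3*, which marks its *RAD4* deletion. Each genotype is represented by a single strain, so an effect of the deletion and a difference particular to that strain cannot be told apart. All values below are log2 RMA values (robust multichip average), on which a difference of 1 is a doubling, and the number of arrays limits their precision. The probe sets of *STE3* and *SAG1*, which mark *MATα* cells, lay between 9.20 and 11.06 on all 12 arrays, and those of 5 *MATa*-specific genes between 2.99 and 6.35. *RAD23* followed the labels and *RAD4* went against 2 of them. *RAD23* was between 3.66 and 3.82 in *rad4Δrad23Δ*, between 4.27 and 4.88 in *rad23Δ*, and between 9.32 and 9.82 in *rad4Δ* and wildtype. The *RAD4* probe set read 2.70 to 2.99 in *rad4Δrad23Δ* and 5.12 to 5.44 in *rad23Δ*, but 5.47 on the array labelled *rad4Δ* replicate 2 and 3.42 on the array labelled wildtype replicate 3, whereas the other arrays read 3.49 and 3.01 (labelled *rad4Δ*) and 5.11 and 5.12 (labelled wildtype). Arrays are used as labelled, and calls and some differences are also given without these 2. Array separations are those of all 12 arrays unless stated.

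With all arrays weighted equally, none of the 41 genes was called changed in any comparison. A gene was called where its adjusted p was under 0.05 (limma, Benjamini-Hochberg over all 9275 probe sets). In *rad4Δrad23Δ* against wildtype, 0 of 41 genes were called, against 0.647% of all probe sets, and 3 of 41 had an unadjusted p under 0.05, against 11.1%. In *rad23Δ* against wildtype, 0 were called, against 0.28%, and 2 had an unadjusted p under 0.05, against 7.15%. In *rad4Δ* against wildtype, 0 were called, against 0% of all probe sets, and 2 had an unadjusted p under 0.05, against 4.16%. The differences themselves were small. They ran between -0.47 and 0.33 in *rad4Δrad23Δ*, with a median of -0.04, between -0.43 and 0.18 in *rad23Δ*, with a median of 0.03, and between -0.67 and 0.34 in *rad4Δ*, with a median of 0.07. The medians over all probe sets were -0.02, -0.01 and -0.00 in the same order.

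The intervals, which are not adjusted for the number of probe sets, show what the arrays could resolve gene by gene. The 95% interval of a difference reached a median of 0.28 to either side. It lay wholly within 1 log2 unit, a doubling or its inverse, for 40 of 41 genes in *rad4Δrad23Δ*, 40 in *rad23Δ* and 39 in *rad4Δ*, the exceptions being *ILV5* in all 3 mutants and *TRP1* in *rad4Δ*. It lay within 0.5 for 32, 31 and 32 genes in the same order. With 3 arrays per strain, a difference smaller than the reach of its own interval could not be told from 0. Larger ones could also go uncalled after adjustment, as did *ARO3* at -0.39 in *rad4Δrad23Δ* (limma adjusted p = 0.281). Without the 2 arrays in doubt, 0 of 41 genes were again called in each mutant, against 0.787% of all probe sets in *rad4Δrad23Δ*, 0.658% in *rad23Δ* and 0.431% in *rad4Δ*, and 4, 2 and 1 genes had an unadjusted p under 0.05, against 9.24%, 8.59% and 9.06%.

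**Figure D1:**
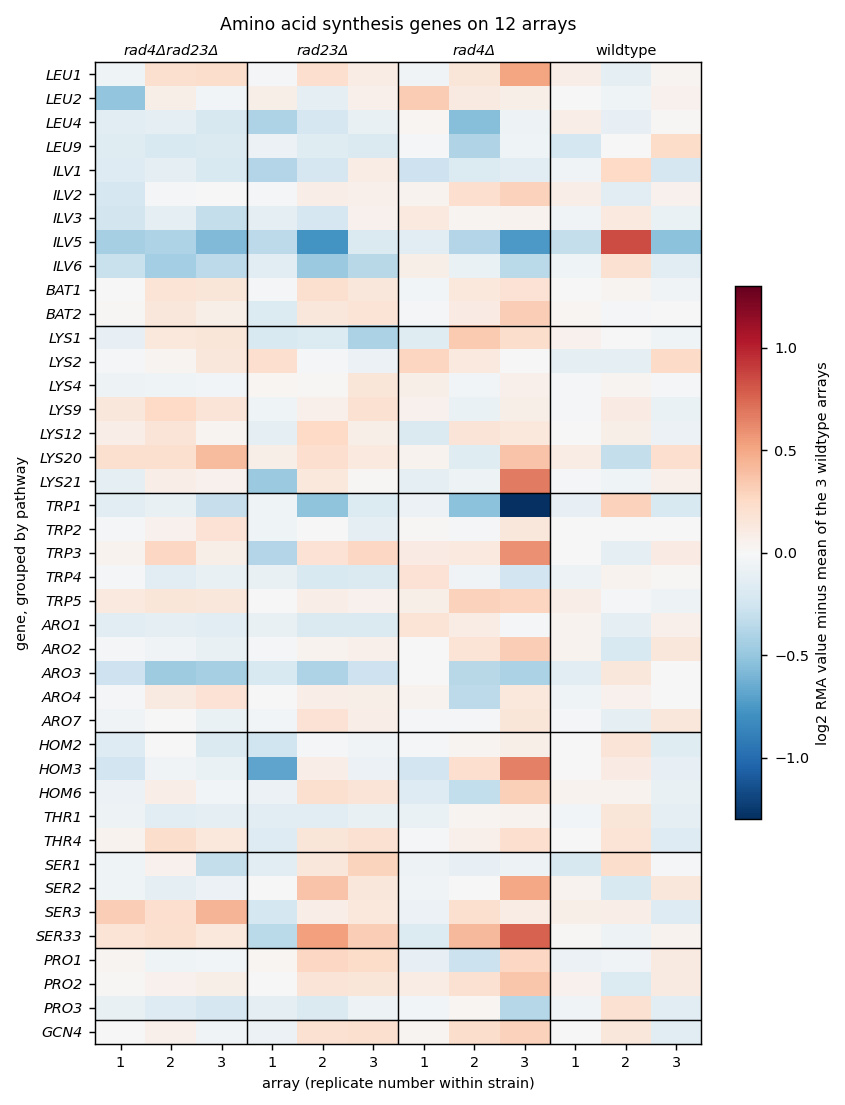
Values of the 41 genes on each of the 12 arrays, as the log2 RMA value minus the mean of the 3 wildtype arrays, with genes in rows by pathway and arrays in columns by strain. The strongest colours belong to single arrays: *TRP1* is lowest on *rad4Δ* replicate 3 at 6.37, and *ILV5* is highest on wildtype replicate 2 at 10.23.

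**Figure D2:**
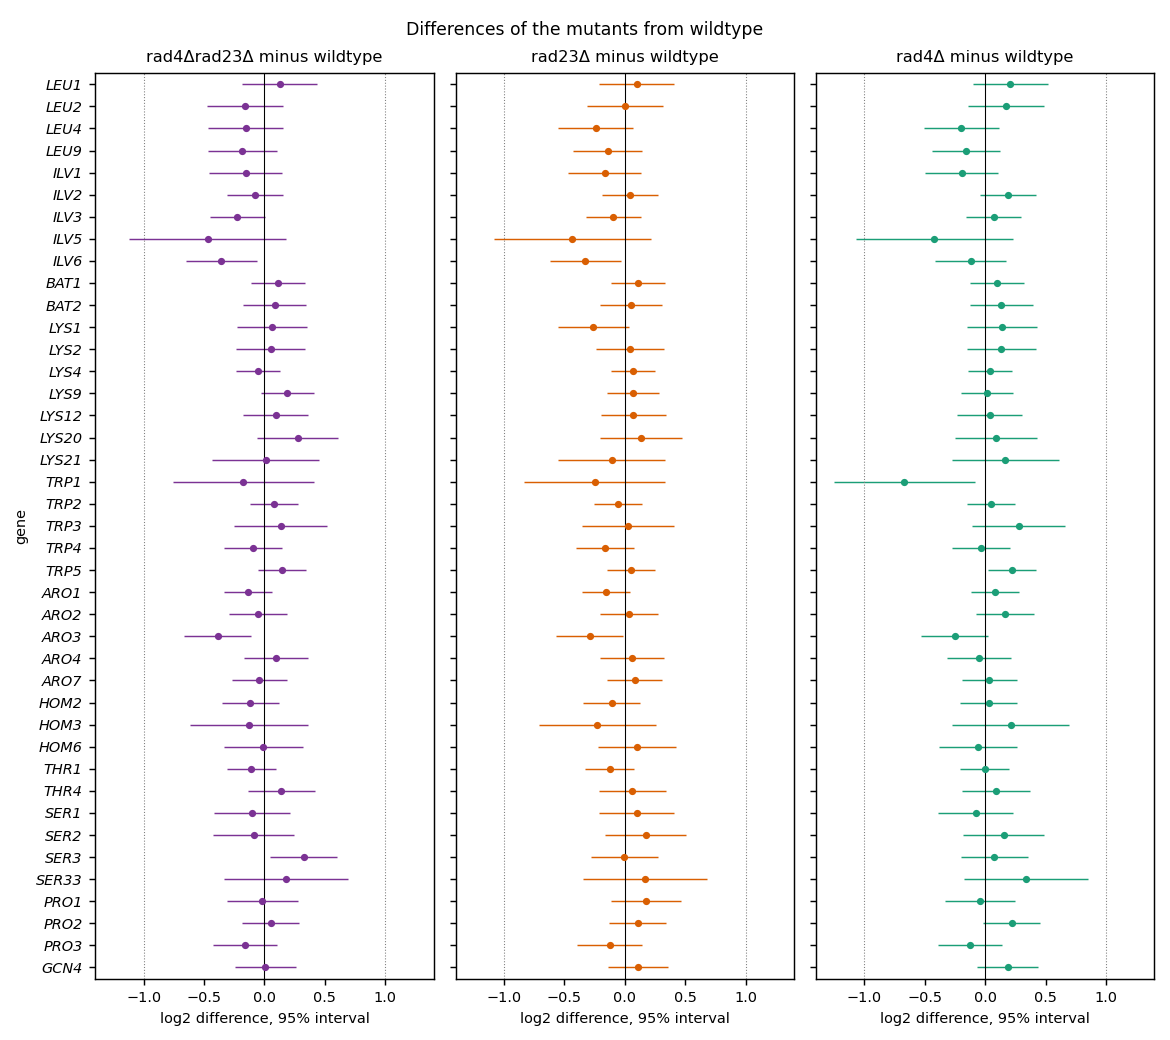
Log2 difference of each mutant from wildtype for the 41 genes, with 95% intervals from limma and 3 arrays per strain. Points run between -0.67 and 0.34, and dotted lines mark 1 log2 unit either way.

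The branched-chain pathway makes isoleucine, valine and leucine. Of its 11 genes, 8 had a negative and 3 a positive difference in *rad4Δrad23Δ* (median -0.16), with 6 negative in *rad23Δ* (median -0.10) and 5 negative in *rad4Δ* (median 0.07), and none was called. *ILV6* (YCL009C) encodes the regulatory subunit of acetolactate synthase, the first enzyme common to isoleucine and valine. It read 10.47, 10.32 and 10.42 in *rad4Δrad23Δ*, 10.62, 10.28 and 10.40 in *rad23Δ*, 10.84, 10.67 and 10.41 in *rad4Δ*, and 10.70, 10.96 and 10.62 in wildtype. All 3 double mutant arrays were below all 3 wildtype arrays, while *rad23Δ* touched and *rad4Δ* overlapped wildtype. Its difference was -0.36 in *rad4Δrad23Δ* (95% interval -0.65 to -0.06, a fold of 0.781, limma adjusted p = 0.344) and -0.33 in *rad23Δ* (-0.62 to -0.03, adjusted p = 0.631), and neither passed. *ILV2* (YMR108W), which encodes the catalytic subunit of the same enzyme, read 9.65, 9.85 and 9.87 in *rad4Δrad23Δ* and 9.95, 9.73 and 9.92 in wildtype, and its arrays overlapped.

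*ILV3* (YJR016C) encodes dihydroxyacid dehydratase, which makes the keto acids that become isoleucine and valine. It read 10.94, 11.07 and 10.87 in *rad4Δrad23Δ*, 11.06, 10.96 and 11.24 in *rad23Δ*, 11.31, 11.22 and 11.23 in *rad4Δ*, and 11.14, 11.31 and 11.10 in wildtype. The double mutant arrays were below those of wildtype and of *rad4Δ*, by 0.22 (standard error 0.104, adjusted p = 0.454) and 0.29 (adjusted p = 0.30), and neither difference passed. *ILV5* (YLR355C), for acetohydroxyacid reductoisomerase, varied more among arrays of 1 strain than any other of the genes. It read 8.95, 8.99 and 8.81 in *rad4Δrad23Δ*, 9.05, 8.61 and 9.20 in *rad23Δ*, 9.25, 9.01 and 8.64 in *rad4Δ*, and 9.08, 10.23 and 8.85 in wildtype. Wildtype replicate 2 stood far above the other 11 arrays and set the means. The difference of *rad4Δrad23Δ* from wildtype, -0.47 (-1.12 to 0.18), was -0.05 without that array, and that of *rad23Δ*, -0.43, was -0.01. Without the 2 arrays in doubt, which leaves that array as 1 of 2 from wildtype, they were -0.74 and -0.70, and neither passed. *ILV5*, *ILV2* and other genes outside the naming rule were chosen after their values were seen.

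Leucine branches off through isopropylmalate synthase, encoded by *LEU4* (YNL104C) and *LEU9* (YOR108W). *LEU4* was below wildtype on each double mutant array, at 10.45, 10.47 and 10.38 in *rad4Δrad23Δ* and 10.68, 10.48 and 10.61 in wildtype (difference -0.16, -0.47 to 0.15), by only 0.01 at the closest arrays. *LEU9* overlapped between all strains, at 7.53, 7.49 and 7.50 in *rad4Δrad23Δ* and 7.46, 7.68 and 7.93 in wildtype. The aminotransferase genes *BAT1* and *BAT2*, for the mitochondrial and the cytosolic enzyme of the last step, also overlapped. *BAT1* was between 10.48 and 10.74 and *BAT2* between 9.88 and 10.38 over the 12 arrays.

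*LEU2* and *LYS2* are disrupted in the parent strain, and their probe sets were read where no intact gene is present. *LEU2* (YCL018W, isopropylmalate dehydrogenase) read 4.63, 5.22 and 5.11 in *rad4Δrad23Δ*, 5.22, 5.02 and 5.21 in *rad23Δ*, 5.48, 5.26 and 5.22 in *rad4Δ*, and 5.15, 5.09 and 5.20 in wildtype. *rad4Δ* was above wildtype on all 3 arrays, by 0.17 on average, and the difference of *rad4Δrad23Δ* from *rad4Δ*, -0.33, had an unadjusted p of 0.0386 (limma adjusted p = 0.421). *LYS2* (YBR115C, aminoadipate reductase) was between 2.93 and 3.34 on the 12 arrays. Array separations and unadjusted p-values of the size seen among the other genes therefore also occurred for a disrupted gene. The other *LEU2* probe sets, with means of 3.29 and 3.79, went the same way between *rad4Δrad23Δ* and *rad4Δ*. They differed by -0.25 and -0.34 (limma unadjusted p = 0.0708 and 0.0323). The source of these differences was not tested.

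The lysine pathway runs through aminoadipate, as in other fungi. Its 7 genes had median differences of 0.06 in *rad4Δrad23Δ*, 0.07 in *rad23Δ* and 0.09 in *rad4Δ*, where all 7 were positive, the disrupted *LYS2* included, and none was called. *LYS20* (YDL182W) and *LYS21* (YDL131W) encode the homocitrate synthases of the first step. *LYS20* read 10.70, 10.70 and 10.91 in *rad4Δrad23Δ* and 10.59, 10.19 and 10.71 in wildtype, a difference of 0.27 (-0.07 to 0.61, adjusted p = 0.536), and 0.38 without the 2 arrays in doubt. *LYS21* was between 9.13 and 10.29 over the 12 arrays, with both ends set by single arrays, *rad23Δ* replicate 1 and *rad4Δ* replicate 3. Another probe set, annotated to both genes, differed by -0.03, -0.17 and -0.15 from wildtype in *rad4Δrad23Δ*, *rad23Δ* and *rad4Δ*. The values cannot show how much of each copy's RNA its own probe set takes up.

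*LYS1* (YIR034C), for the saccharopine dehydrogenase that releases lysine, read 7.10, 7.34 and 7.36 in *rad4Δrad23Δ*, 7.01, 7.03 and 6.80 in *rad23Δ*, 7.05, 7.55 and 7.44 in *rad4Δ*, and 7.26, 7.21 and 7.15 in wildtype. The *rad23Δ* arrays were the lowest and lay below all wildtype and all double mutant arrays. The difference of *rad23Δ* from wildtype was -0.26 (-0.55 to 0.03, adjusted p = 0.711), that of *rad4Δrad23Δ* from *rad23Δ* was 0.32 (0.03 to 0.61, adjusted p = 0.419), and neither passed. *LYS9* (YNR050C), for the saccharopine dehydrogenase of the step before, was above wildtype on each double mutant array, at 7.75, 7.87 and 7.77 in *rad4Δrad23Δ* and 7.59, 7.71 and 7.52 in wildtype (0.19, adjusted p = 0.495). *LYS4* (YDR234W, homoaconitase) was separated by far less, at 7.26, 7.27 and 7.29 in *rad4Δrad23Δ* and 7.30, 7.36 and 7.31 in wildtype. Its difference was -0.05 (-0.23 to 0.13), and with a standard deviation within strains of 0.0526 it was the most even of the 39 genes that are not disrupted.

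The aromatic pathway leads through chorismate to tryptophan, phenylalanine and tyrosine. Its 10 genes had median differences of -0.05 in *rad4Δrad23Δ*, -0.02 in *rad23Δ* and 0.04 in *rad4Δ*, and none was called. *ARO3* (YDR035W) encodes the entry enzyme, DAHP synthase, in its phenylalanine-inhibited form. It read 9.66, 9.47 and 9.50 in *rad4Δrad23Δ*, 9.73, 9.53 and 9.66 in *rad23Δ*, 9.94, 9.57 and 9.52 in *rad4Δ*, and 9.79, 10.08 and 9.92 in wildtype. *rad4Δrad23Δ* and *rad23Δ* lay wholly below wildtype, and *rad4Δ* overlapped it on 1 array. The difference of *rad4Δrad23Δ* was -0.39 (-0.66 to -0.11, a fold of 0.765, unadjusted p = 0.0104), that of *rad23Δ* -0.29 and that of *rad4Δ* -0.25. With limma adjusted p-values of 0.281, 0.669 and 0.906 none passed, although 0.281 was the lowest of the 41 genes in any comparison. The 3 differences share the wildtype arrays. *ARO4* (YBR249C), for the tyrosine-inhibited form, differed from wildtype by at most 0.09 in each mutant, at 9.89, 10.03 and 10.10 in *rad4Δrad23Δ*, 9.92, 10.00 and 9.99 in *rad23Δ*, 9.96, 9.57 and 10.05 in *rad4Δ*, and 9.86, 9.97 and 9.91 in wildtype.

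*ARO1* (YDR127W) encodes the protein that carries the next 5 steps. It read 9.90, 9.91 and 9.89 in *rad4Δrad23Δ*, 9.94, 9.85 and 9.85 in *rad23Δ*, 10.21, 10.13 and 10.01 in *rad4Δ*, and 10.08, 9.92 and 10.10 in wildtype. The double mutant arrays were nearly identical and were below wildtype by 0.13 on average and below *rad4Δ* by 0.22 (adjusted p = 0.618 and 0.408), although the nearest wildtype array was only 0.01 above them, and *rad23Δ* arrays lay on both sides of them. Tryptophan is then made from chorismate by the *TRP* enzymes. *TRP5* (YGL026C, tryptophan synthase) read 11.07, 11.10 and 11.09 in *rad4Δrad23Δ*, 11.02, 11.24 and 11.22 in *rad4Δ*, and 11.03, 10.92 and 10.87 in wildtype. It was above wildtype on each double mutant array by a mean of 0.15, and in *rad4Δ* by 0.22 (0.02 to 0.42, adjusted p = 0.906) with 1 array inside the wildtype range. *TRP4* (YDR354W, anthranilate phosphoribosyl transferase) was below wildtype on each *rad23Δ* array, at 7.73, 7.63 and 7.64 in *rad23Δ* and 7.76, 7.88 and 7.85 in wildtype, by 0.16 on average. *TRP1* (YDR007W, phosphoribosylanthranilate isomerase) had the largest difference of any of the 41 genes, in *rad4Δ*. It read 7.70, 7.24 and 6.37 in *rad4Δ* and 7.67, 8.07 and 7.58 in wildtype, so the *rad4Δ* arrays spread over more than a log2 unit and replicate 1 lay within wildtype. The difference of -0.67 (-1.25 to -0.09, adjusted p = 0.906) was -0.30 without *rad4Δ* replicate 3 and -0.97 without *rad4Δ* replicate 1.

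**Figure D3:**
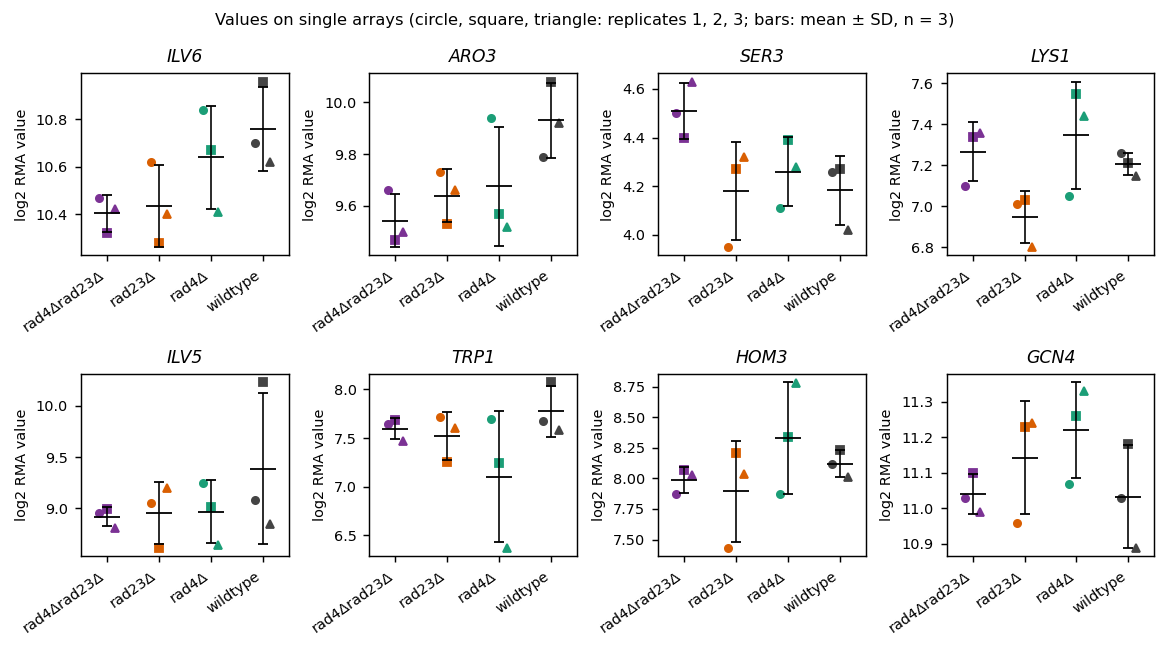
Log2 RMA values of 8 genes on the 12 arrays, with the mean and SD of the 3 arrays of each strain; each panel has its own axis, which does not start at 0. *ARO3* and *ILV6* are lower in *rad4Δrad23Δ* than in wildtype on every array and *SER3* is higher, while *ILV5* and *TRP1* are spread by single arrays.

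The threonine pathway starts from aspartate and shares its first steps with methionine. Its 5 genes had median differences of -0.11 in *rad4Δrad23Δ*, -0.11 in *rad23Δ* and 0.03 in *rad4Δ*, and none was called. With all arrays used, none had arrays that separated a mutant from wildtype. Without the 2 arrays in doubt, *HOM3* and *THR1* in *rad4Δrad23Δ* and *HOM2* and *THR1* in *rad23Δ* lay below the remaining wildtype arrays. With fewer arrays separation is easier, and it was not particular to this pathway. In *rad4Δrad23Δ*, *ILV1* then also lay below wildtype, and the disrupted *LYS2* above it. *HOM3* (YER052C, aspartate kinase) read 7.87, 8.07 and 8.03 in *rad4Δrad23Δ*, 7.43, 8.21 and 8.04 in *rad23Δ*, 7.87, 8.34 and 8.78 in *rad4Δ*, and 8.12, 8.23 and 8.01 in wildtype. Its lowest and highest values stood on *rad23Δ* replicate 1 and *rad4Δ* replicate 3. *THR4* (YCR053W, threonine synthase) was between 9.54 and 9.94, and *HOM2* (YDR158W, aspartate semialdehyde dehydrogenase) between 9.22 and 9.64.

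In the serine pathway, *SER3* (YER081W) and *SER33* (YIL074C) encode the phosphoglycerate dehydrogenases of the first step. *SER3* read 4.50, 4.40 and 4.63 in *rad4Δrad23Δ*, 3.95, 4.27 and 4.32 in *rad23Δ*, 4.11, 4.39 and 4.28 in *rad4Δ*, and 4.26, 4.27 and 4.02 in wildtype. The double mutant was above every array of the other strains. Its difference was 0.33 from wildtype (0.05 to 0.60, a fold of 1.25, adjusted p = 0.361), 0.33 from *rad23Δ* (adjusted p = 0.349) and 0.25 from *rad4Δ* (adjusted p = 0.527), and none passed. Without the 2 arrays in doubt, the difference from wildtype was 0.245 (limma adjusted p = 0.612). No background level per probe set was used here, so how far *SER3* stood above its own is not known. *SER33* was also above wildtype on each double mutant array, at 6.30, 6.33 and 6.26 in *rad4Δrad23Δ* and 6.14, 6.05 and 6.17 in wildtype (0.18, -0.34 to 0.69). *SER33* spread much more in the single mutants, at 5.77, 6.65 and 6.44 in *rad23Δ* and 5.94, 6.54 and 6.89 in *rad4Δ*. *SER2* (YGR208W, phosphoserine phosphatase) read 8.63, 8.56 and 8.61 in *rad4Δrad23Δ* and 8.69, 9.06 and 8.84 in *rad23Δ*, which did not overlap (-0.26, adjusted p = 0.630). The 3 proline genes, which lead from glutamate, had differences between -0.16 and 0.22 in the 3 mutants.

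*GCN4* (YEL009C) itself read 11.03, 11.10 and 10.99 in *rad4Δrad23Δ*, 10.96, 11.23 and 11.24 in *rad23Δ*, 11.07, 11.26 and 11.33 in *rad4Δ*, and 11.03, 11.18 and 10.89 in wildtype. All strains overlapped. The differences from wildtype were 0.01 in *rad4Δrad23Δ* (-0.24 to 0.26), 0.11 in *rad23Δ* (-0.14 to 0.36) and 0.19 in *rad4Δ* (-0.06 to 0.44), with adjusted p-values of 0.987, 0.832 and 0.906. They were -0.065, 0.038 and 0.095 without the 2 arrays in doubt.

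Separation of all 3 arrays of a mutant from all 3 wildtype arrays was no more frequent among these genes than over the whole array. It was found for 10 of 41 genes in *rad4Δrad23Δ* (24.4%), against 24.9% of all probe sets, with 4 genes higher, against 11.6%, and 6 lower, against 13.3%. It was found for 3 in *rad23Δ*, all lower (7.32%, against 11.5%, or 6.5% in this direction), and for 1 in *rad4Δ*, the disrupted *LEU2* higher (2.44%, against 5.47%, or 2.53% in this direction). With 3 arrays on each side, 0.1 is the smallest p of an exact permutation test, so separation alone reaches no threshold. These shares use all arrays, and shares without the 2 arrays in doubt were not taken.

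The double mutant was also compared with each single mutant. These comparisons and the interaction hold the second deletion together with the *HIS3* marker, which only the double mutant carries. The comparison with *rad4Δ* also holds a difference of strain, since the double mutant was built in *rad23Δ*. These cannot be told apart. Against *rad23Δ*, 0 of 41 genes were called, against 0.873% of all probe sets, and differences ran between -0.26 and 0.33 (median 0.01). Against *rad4Δ*, 0 were called, against 0.765%, and differences ran between -0.34 and 0.49 (median -0.08). At an unadjusted p under 0.05 there were 2 and 4 genes, against 10.3% and 10.8% of all probe sets. Arrays did not overlap for 6 genes against *rad23Δ* (14.6%, against 20.4%) and for 8 against *rad4Δ* (19.5%, against 17.2%). The 2 with an unadjusted p under 0.05 were *SER3* and *LYS1*, and the 4 were *ILV2*, *ILV3*, *ARO1* and *LEU2*, all lower in the double mutant. *ILV2* read 9.65, 9.85 and 9.87 in *rad4Δrad23Δ* and 9.91, 10.09 and 10.17 in *rad4Δ*, a difference of -0.27 (-0.50 to -0.04, adjusted p = 0.380). The interaction was taken as the difference of *rad4Δrad23Δ* from *rad23Δ* minus that of *rad4Δ* from wildtype. It was called for 0 of 41 genes, against 0.0863% of all probe sets, and 0 had an unadjusted p under 0.05, against 8.92%. Its intervals were wider, with a median of 0.39 to either side, and 15 of 41 lay within 0.5. Without the 2 arrays in doubt, 0 of 41 genes were called in each of these 3 comparisons, against 1.35% of all probe sets for the difference from *rad23Δ*, 1.25% for that from *rad4Δ* and 1.19% for the interaction, and 2, 2 and 1 had an unadjusted p under 0.05, against 10.7%, 11.5% and 12.1%.

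Calls did appear when arrays were given weights by their scatter. Weights estimated gene by gene, an alternative chosen after the data were seen, gave 2 calls among the 41 genes in *rad4Δrad23Δ*, *ILV6* at -0.29 (limma adjusted p = 0.0407) and *SER3* at 0.29 (adjusted p = 0.0467), beside 8.92% of all probe sets. In *rad23Δ* they gave *ILV6* at -0.37 (adjusted p = 0.0268), beside 9.08%, and between *rad4Δrad23Δ* and *rad23Δ* they gave *SER2* at -0.35 (adjusted p = 0.0298), beside 9.96%. Those weights gave wildtype replicate 1 the highest value of the 12 arrays, 3.27, against 0.404 and 0.562 for the other wildtype arrays. They called 0 genes in *rad4Δ* (0.0108% of all probe sets), 0 between *rad4Δrad23Δ* and *rad4Δ* (3.71%) and 0 for the interaction (3.58%). Weights common to all genes, whose estimation stopped before it converged, called 7 genes in *rad4Δrad23Δ* and 8 in *rad23Δ* beside 25.4% of all probe sets in each, 1 in *rad4Δ* beside 6.89%, 1 between *rad4Δrad23Δ* and *rad23Δ* beside 9.66%, 4 between *rad4Δrad23Δ* and *rad4Δ* beside 9.51%, and 2 for the interaction beside 11%. *ILV6* was again among those called in *rad4Δrad23Δ* and in *rad23Δ*, and *GCN4* was called in *rad23Δ* (0.19, adjusted p = 0.0439) and for the interaction (-0.40, adjusted p = 0.0229).

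Between arrays of a strain, moderate variation was rarer among the genes than among all probe sets, and large variation was about as frequent. Over the 39 genes that are not disrupted, the SD within strains had a median of 0.153, against 0.171 over all probe sets. It was over 0.2 for 7 genes (17.9%, against 36.9% of all probe sets). It was over 0.3 for 4 genes, *ILV5* (0.431), *TRP1* (0.386), *SER33* (0.334) and *HOM3* (0.316), which is 10.3% of them, against 10.9%. Extreme values were gathered on a few arrays. The highest of the 12 values stood on *rad4Δ* replicate 3 for 12 of the 39 genes (30.8%, against 16.9% of all probe sets), and the lowest stood on *rad23Δ* replicate 1 for 8 (20.5%, against 7.97%). Wildtype replicate 2 held the highest value for 8 (20.5%, against 14.01%) and the lowest for 6 (15.4%, against 14.6%). All of the 39 genes but *SER3* had a mean of at least 6, above the median value of every array, 5.83 to 5.90. They were not compared with probe sets of like signal. The part of signal level in these shares, in the SDs above and in the correlations below was not tested. On *rad4Δ* replicate 3 the genes had a median deviation from their mean over the arrays of 0.12, and on *rad23Δ* replicate 1 of -0.09, while the median size of a difference from wildtype was 0.117 in *rad4Δrad23Δ*, 0.11 in *rad23Δ* and 0.133 in *rad4Δ*.

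**Figure D4:**
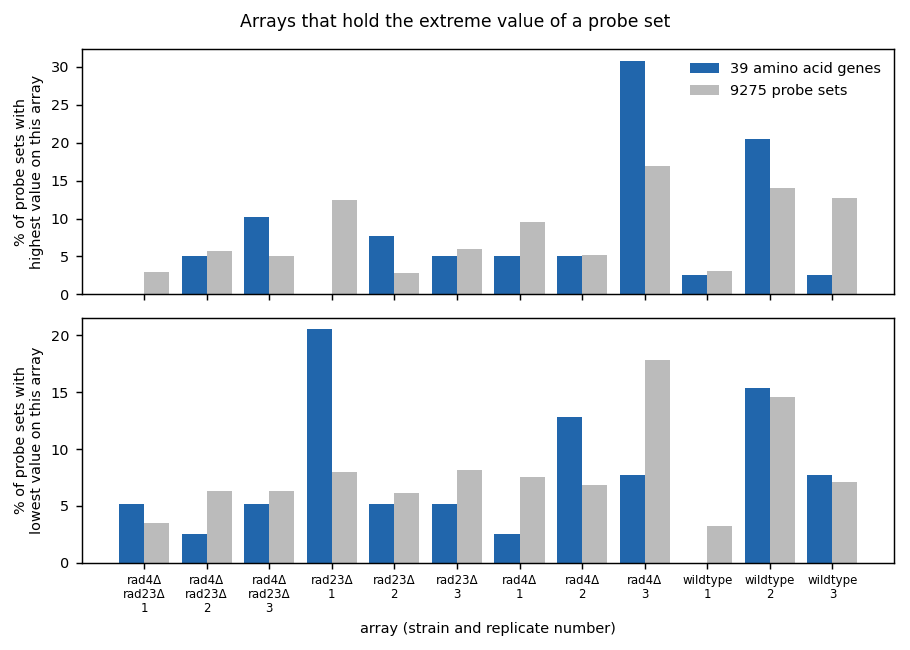
Share of genes whose highest (upper panel) or lowest (lower panel) of 12 values stood on each array, for the 39 amino acid synthesis genes that are not disrupted and for all 9275 probe sets. *rad4Δ* replicate 3 holds 30.8% of the highest values of these genes and *rad23Δ* replicate 1 holds 20.5% of the lowest.

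Arrays of a strain also moved the genes together. Deviations from the strain means were correlated between pairs of genes over the 12 arrays, as a description, since all pairs share the same arrays and the deviations within a strain sum to 0. Of 741 pairs of the 39 genes, 169 had an r of 0.7 or more in size (22.8%, against 13.7% of all pairs of probe sets), and the share was 17.9% without *rad4Δ* replicate 3 (against 13.5%), 31.0% without wildtype replicate 2 (against 17.7%) and 37.1% without the 2 arrays in doubt (against 23.3%). Of the genes with related copies, *BAT1* and *BAT2* had an r of 0.858, *LYS20* and *LYS21* 0.640, *SER3* and *SER33* 0.609, *LEU4* and *LEU9* 0.410, and *ARO3* and *ARO4* 0.0954. The deviations of *GCN4* had an r of 0.7 or more with 10 of the other 38 genes (26.3%, against 11.5% of all probe sets) and of -0.7 or less with 1 (2.63%, against 16.4%). The closest were *THR4* with an r of 0.947 (Spearman rho 0.937), *HOM2* with 0.903 (0.874), *LYS12*, for homoisocitrate dehydrogenase, with 0.864 (0.811), and *HOM3* with 0.858 (0.895), and *ARO1* ran the opposite way at -0.856 (-0.865). Without the 2 arrays on which the deviation of *GCN4* from its strain mean was farthest from the median deviation, *rad23Δ* replicate 1 and *rad4Δ* replicate 1, the r of *THR4* was 0.931, that of *HOM2* 0.931, that of *LYS12* 0.721, that of *HOM3* 0.695 and that of *ARO1* -0.808.

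The same pattern followed a property of whole arrays. The SD of all values of an array was between 2.33 and 2.45, and its deviations from the strain means were used here. With these, the deviations of *GCN4* had an r of 0.970 (rho 0.951), those of *THR4* 0.978, those of *HOM2* 0.877, those of *HOM3* 0.873 and those of *ARO1* -0.877. The disrupted *LYS2* had -0.848. After a further quantile normalization, which gives every array the same distribution, the r with *GCN4* was 0.739 for *THR4*, 0.619 for *HOM2*, 0.680 for *LYS12*, 0.766 for *HOM3* and -0.847 for *ARO1*. Only 3 of the 38 genes were then at 0.7 or more with *GCN4*, and 1 at -0.7 or less. The share over all probe sets was not taken here, so an excess likeness to *GCN4* is not shown. Of pairs of the 39 genes, 17.3% were at 0.7 or more in size, against 11.6% of all pairs. Stress genes varied between arrays of a strain too. *HSP12* read 9.25, 10.86 and 9.01 in *rad4Δ* and 10.65, 10.69 and 9.20 in wildtype. *HSP26* read 7.58, 8.78 and 7.65 in *rad4Δ* and 8.78, 8.89 and 7.60 in wildtype. Of the 5 stress genes listed, *HSP12* and *HSP26* stood apart on the 2 arrays in doubt, each of which read near the arrays of the other label. *CTT1* read 5.58, 5.23 and 6.14 in *rad4Δ* and 5.11, 4.88 and 5.74 in wildtype. *TPS1* read 9.06, 9.31 and 9.17 in *rad4Δ* and 9.24, 9.55 and 8.86 in wildtype. For both, the 2 arrays in doubt held an extreme value of their labelled strain, which is frequent for any array among 3. *DDR2* read 8.19, 7.92 and 6.83 in *rad4Δ*, where replicate 3 stood apart, and 8.15, 8.83 and 7.77 in wildtype. The part of either in the shared movement of the genes was not tested.

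**Figure D5:**
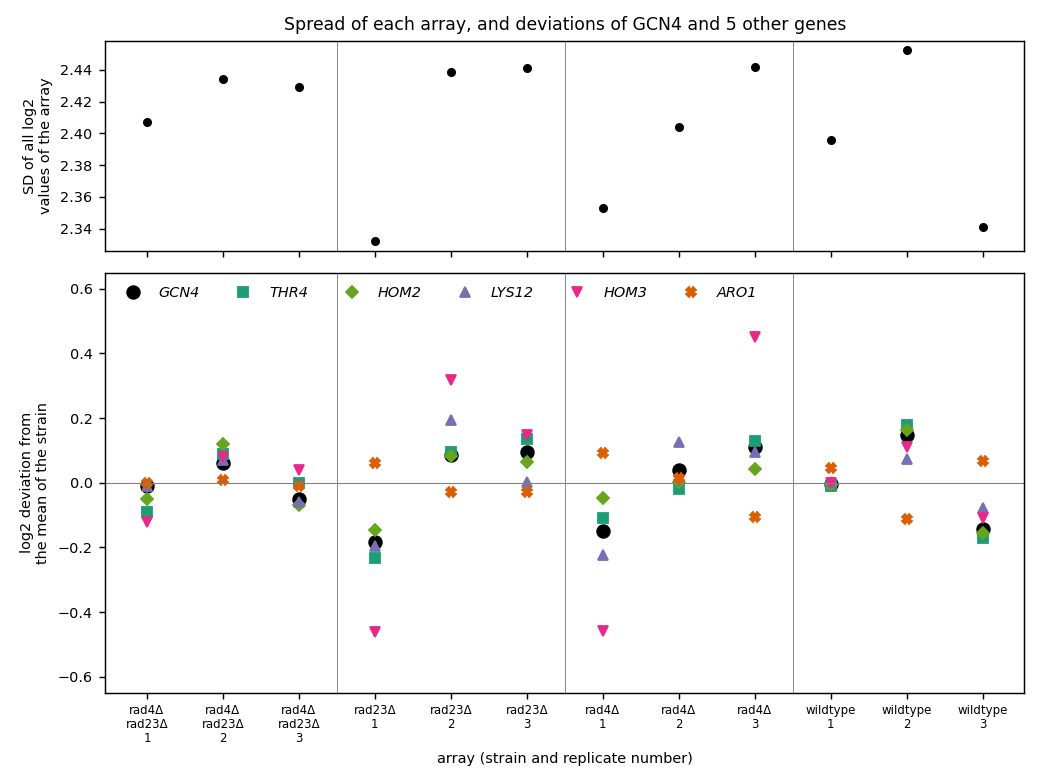
Upper panel, SD of all log2 values of each array; lower panel, deviation of *GCN4* and 5 other genes from the mean of their strain on each of the 12 arrays, in log2 units. *GCN4* tends to be low on arrays whose SD is small for their strain and high where it is large. Between the deviations of both from the strain means, r was 0.970. *THR4*, *HOM2*, *LYS12* and *HOM3* go the same way and *ARO1* the opposite way.

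Other genes of amino acid metabolism were read from a list of 42, covering further enzymes, regulators, permeases and proline breakdown, of which 41 were measured. In the unweighted fit to all arrays, 1 was called in *rad23Δ* against wildtype (0.28% of all probe sets), 1 between *rad4Δrad23Δ* and *rad23Δ* (0.873%) and 0 in the other 4 comparisons. Both calls were of *AGP1*, which encodes a broad amino acid permease of the plasma membrane. It read 7.39, 7.41 and 7.58 in *rad4Δrad23Δ*, 6.74, 6.88 and 7.05 in *rad23Δ*, 7.60, 7.59 and 7.66 in *rad4Δ*, and 7.71, 7.57 and 7.50 in wildtype. The *rad23Δ* arrays were below all others. *AGP1* fell by 0.70 in *rad23Δ* against wildtype (standard error 0.105, limma adjusted p = 0.0163) and was 0.57 higher in *rad4Δrad23Δ* than in *rad23Δ* (adjusted p = 0.0301), while its difference of -0.13 between *rad4Δrad23Δ* and wildtype did not pass (adjusted p = 0.676). Leaving out the 2 arrays in doubt gave differences of -0.75 in *rad23Δ* against wildtype (adjusted p = 0.0224) and 0.57 between *rad4Δrad23Δ* and *rad23Δ* (adjusted p = 0.0364). The first call was lost without *rad23Δ* replicate 2, wildtype replicate 1 or wildtype replicate 2 (adjusted p = 0.097, 0.0935 and 0.0503) and with only those 2 strains fitted (0.151), and the second without any 1 of the 6 arrays compared (0.0576 to 0.185) or wildtype replicate 1 (0.0507). Some other settings called further genes. Quantile normalization called *ALT1* in *rad4Δrad23Δ* against wildtype, beside 80 of 9275 probe sets. Between *rad4Δrad23Δ* and *rad4Δ*, median centring called *DIP5* (beside 69), and leaving out the 2 arrays in doubt called *ARO9* (beside 116). Weights common to all genes called 14 of the 41 in *rad4Δrad23Δ* against wildtype, beside 25.4% of all probe sets.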

How the data were processed

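The authors made the values with RMA in affy 1.5.8 (Bioconductor 1.5, R 2.0.1) from arrays scanned with Microarray Suite 5.0, and the deposited values are log2 with 2 decimals. RMA adjusts background and equalises arrays, so differences are relative to the other probe sets. No normalization was added. Of 9335 probe sets, 60 controls were left out. Strain means were estimated in limma 3.58.1 (R 4.3.3) from the 12 arrays together (residual degrees of freedom 8, prior 4.03), adjusting by Benjamini-Hochberg over 9275 probe sets at a threshold of 0.05. Adjusted p-values come from this fit unless another is named. The method was tested on simulated data. Replicates are as labelled. Genes named are *GCN4*, *LEU2*, *LYS2*, the pairs of related copies, and those whose mutant arrays all lay beyond wildtype. The genes and lists were chosen with earlier results of these data known. Alternatives covered scaling, dim probe sets, strains fitted, variance model, weights, several probe sets, replicate block and arrays left out. Promoter sequences were not used here.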

Additional observations from a re-analysis of the deposited data

How the results depend on the processing

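No gene of the 41 was called in any of the 6 comparisons with median centring, quantile normalization, the variance trend with a robust prior, a minimum mean of 6 (38 genes), several probe sets averaged, *LEU2* and *LYS2* left out, the 2 arrays in doubt left out, or any single array left out (lowest and highest count 0), nor with only the strains compared, which leaves no interaction. The replicate number as a block also gave 0 in each comparison. Deviations of same-numbered arrays correlated at -0.366 to 0.609, over 0.1 in 10 of 18 pairs and not in 8, against 9 of 36 pairs with other numbers, and 7 of 12 arrays correlated best with their own number. This is a hint from the data only, and since not every pair was over 0.1 the numbers were not taken to pair the samples. Only array weights gave calls. The planned weights, whose estimation stopped before it converged, put 11.5 on wildtype replicate 1. They gave 7 genes in *rad4Δrad23Δ*, 8 in *rad23Δ*, 1 in *rad4Δ*, 1 between *rad4Δrad23Δ* and *rad23Δ*, 4 between *rad4Δrad23Δ* and *rad4Δ* and 2 for the interaction. Of all probe sets they called 25.4%, 25.4%, 6.89%, 9.66%, 9.51% and 11% in the same order. Weights gene by gene, added after seeing the data, gave 2, 1, 0, 1, 0 and 0 in that order. The shares of all probe sets were then 8.92%, 9.08%, 0.0108%, 9.96%, 3.71% and 3.58%.

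Of 1226 values of named genes under alternatives, 35 changed sign, all of small differences that had not passed. *SER3* in *rad23Δ*, -0.00, was 0.017 with median centring, 0.011 with quantile normalization, 0.017 with array weights and 0.036 with weights gene by gene. *GCN4* in *rad4Δrad23Δ* was -0.11 with quantile normalization, and leaving out the 2 arrays in doubt made it -0.065. *LYS21* was -0.051 with quantile normalization and -0.0058 gene by gene in *rad4Δrad23Δ*, and 0.053 with weights and 0.057 gene by gene in *rad23Δ*. With weights, *LEU9* was 0.027 in *rad4Δrad23Δ* and 0.040 in *rad23Δ*, and *LYS20* in *rad4Δ* was -0.18, or -0.13 gene by gene. Without the 2 arrays in doubt, *LEU9* was 0.08, *ARO4* 0.09 and *SER3* -0.07 in *rad4Δ*. With 1 array left out at a time, differences ran between -0.065 and 0.08 for *GCN4* and -0.028 and 0.072 for *LYS21* in *rad4Δrad23Δ*. In *rad23Δ* they ran between -0.23 and 0.077 for *LYS21*, -0.085 and 0.11 for *SER3*, -0.015 and 0.165 for *BAT2*, -0.015 and 0.425 for *SER33*, and -0.017 and 0.24 for *LYS20*. In *rad4Δ* they ran between -0.15 and 0.092 for *ARO4*, -0.067 and 0.21 for *LYS20*, -0.088 and 0.31 for *LYS21*, and -0.005 and 0.15 for *SER3*. The cause was not tested. With 3 arrays per strain and no background per probe set, small differences and dim probe sets such as that of *SER3* are the least certain.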
